A study of Mus musculus with 18 samples.

Results

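The response of the mouse pancreatic ductal adenocarcinoma line PD883 to transforming growth factor beta (TGFb) was set against the responses of the lines PD454 and PD7591. The measure was a difference of differences on the log2 scale: TGFb minus DMSO in PD883, minus the mean of TGFb minus DMSO in PD454 and in PD7591. PD883 gave 4 of the 18 libraries of the series to this contrast, and with the other lines the contrast used 12. It was computed for each of 13827 genes, and 379 of them had a difference with an adjusted p under 0.05. A positive difference means that the TGFb effect was higher in PD883, through a larger rise or a smaller fall, and a negative difference that it was lower.

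RNA from the 3 lines was sequenced after 48 h with 10 ng/ml TGFb, 2.5 uM ionomycin or the vehicle DMSO, which made 9 groups of line and treatment with 2 libraries each. The libraries carry numbers in the labels: 11 and 12 for TGFb PD883, 7 and 8 for DMSO PD883, 17 and 18 for TGFb PD454, 13 and 14 for DMSO PD454, 5 and 6 for TGFb PD7591, and 1 and 2 for DMSO PD7591. The 6 ionomycin libraries entered the shared estimate of the spread and no comparison given here. That spread was assumed equal in all groups, but duplicates agreed less in PD883 and PD454 than in PD7591. Under TGFb and DMSO their log2 CPM correlated at 0.983 and 0.981 in PD883, 0.987 and 0.981 in PD454, and 0.993 and 0.992 in PD7591. Chi-square per degree of freedom between duplicates was 80.8 and 53.7, 58.3 and 89.7, and 4.83 and 7.93. The SE and p-values may therefore be too small for PD883. The lines came from pancreas on a mixed strain background, their driver alleles are not stated in the labels, and each is a single line, so a difference between lines is a difference between these cultures. All groups, the DMSO controls included, were grown in a medium with dexamethasone, insulin, cholera toxin and nicotinamide, and RNA was isolated with 1 of 2 column kits (RNeasy Mini, NucleoSpin), with no statement of which library had which. The labels do not say whether the libraries of a group came from separate cultures, so the p-values measure only the spread between these libraries, which may be technical.

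TGFb binds a pair of receptor kinases at the cell surface that phosphorylate SMAD2 and SMAD3, and these enter the nucleus with SMAD4 and act on target genes with other transcription factors. In pancreatic carcinoma cells it is known for cell cycle arrest and for epithelial-mesenchymal transition (EMT), in which junction and keratin genes are turned down and matrix, protease and cytoskeletal genes are turned up. Which targets respond depends on the transcription factors and on the state of the cells that receive the signal.

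The libraries held 17591005 to 37894692 counts. The 7 markers of ductal epithelium summed to 3960 to 4200 CPM (counts scaled to a common library size) in the TGFb PD883 libraries, 6600 to 7710 CPM in the DMSO PD883 libraries and 4430 to 7310 CPM in the other lines. The defining markers of other pancreatic cells were low: 4 of 12 acinar markers (Prss1, Cpa1, Cela3b and Pnlip) and 6 of 12 endocrine markers (among them Ins1, Ins2 and Sst) had 0 counts in all 12 libraries, and the 12 endocrine markers together stayed at or below 1.26 CPM. The 12 fibroblast markers summed to 73.5 to 105 CPM in the TGFb PD883 libraries, 6.86 to 8.61 CPM in the DMSO PD883 libraries and 2.82 to 22.1 CPM in the other lines, and Col1a1 alone had 84.3 and 60.6 CPM in the TGFb PD883 libraries. In such bulk libraries fewer cells that express a gene and less RNA per cell cannot be told apart. For each library, log2 CPM less the gene's mean over the 18 libraries was correlated with log2 transcript length. The correlation was -0.195 in DMSO PD454 library 14, -0.193 in DMSO PD883 library 8, -0.178 in TGFb PD883 library 12 and -0.0955 in TGFb PD454 library 18, against -0.0508 to 0.136 in the other 14 libraries. These 4 are called the short-transcript libraries here. The duplicates of PD883 therefore differed in this respect under both treatments, and results that change without one of these libraries are given with and without it.

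TGFb changed 5312 of the 13827 tested genes in PD883 (38.4%), 2546 upward and 2766 downward, against 4282 genes in PD454 (31%) and 5230 in PD7591 (37.8%). The median size of the effect was 0.49 log2 units in PD883, 0.42 in PD454 and 0.52 in PD7591. The effect differed in PD883 from the mean of the other lines for 379 genes, 2.74% of those tested. Of these, 154 genes (1.11%) had a higher and 225 (1.63%) a lower effect, and 277 differed by at least 1 log2 unit. The corresponding contrasts called 526 genes (3.8%) for PD454 and 275 (1.99%) for PD7591. The difference was also called with the same sign against PD454 alone and against PD7591 alone for 85 genes (0.615%), 26 higher and 59 lower.

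Most of the calls were differences in size. Of the 154 genes with a higher effect, 84 rose more in PD883, 18 fell less and 52 had effects of opposite sign. Of the 225 genes with a lower effect, 125 fell more in PD883, 43 rose less and 57 had effects of opposite sign. These groups use the fitted effect in PD883 and the mean effect of the other lines. An effect near 0 can therefore count as opposite, and so can one shared with a single other line. Of the genes with opposite signs, 29 of the 52 and 42 of the 57 were themselves changed by TGFb in PD883. The number of calls depended on the PD883 duplicates: 131 genes were called without DMSO PD883 library 7 and 130 without TGFb PD883 library 12, while 590 were called without DMSO PD883 library 8 and 573 without TGFb PD883 library 11. Of the 379 called genes, 87 were called in each of the 12 runs that left out 1 library, 131 under each of the 8 other settings tried, and 77 in all of them.

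**Figure D1:**
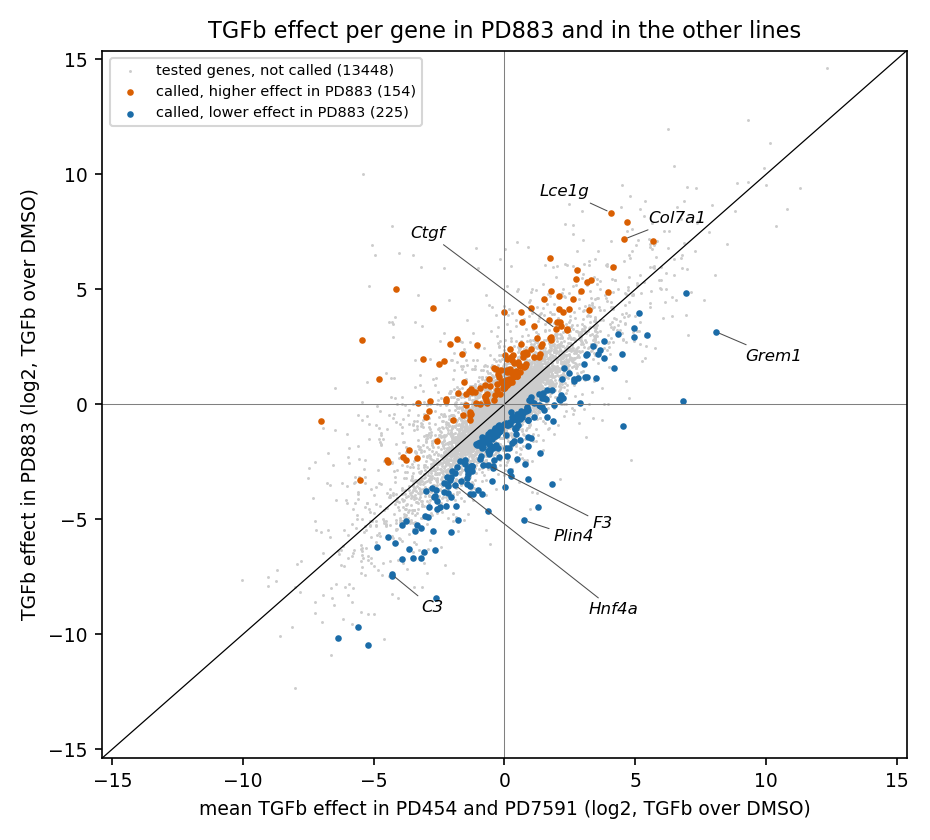
TGFb effect (log2, TGFb over DMSO) in PD883 on the vertical axis against the mean effect in PD454 and PD7591 on the horizontal axis, 1 point per tested gene. The 154 genes called with a higher effect in PD883 (orange) lie above the diagonal of equal effects and the 225 called with a lower effect (blue) lie below it, with Col7a1 at 7.17 on the vertical axis and 4.56 on the horizontal one.

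Feedback regulators and common targets of the pathway responded in PD883. Pmepa1, a feedback inhibitor that holds SMADs away from the receptor, had 898 and 721 CPM under TGFb and 161 and 144 CPM under DMSO in PD883, with effects of 2.41 ± 0.17 in PD883, 2.21 ± 0.17 in PD454 and 2.77 ± 0.17 in PD7591 (log2 ± SE). Smad7, the inhibitory SMAD, rose in all 3 lines, by 1.86 in PD883, 1.21 in PD454 and 2.14 in PD7591. Cdkn2b, an inhibitor of CDK4 and CDK6, rose by 1.63, 1.40 and 1.70 in these lines in the same order, and Id1, a dominant-negative helix-loop-helix factor, changed by -1.93, -1.83 and -1.64. None of these 4 was called for a different effect in PD883 (differences -0.08, 0.19, 0.08 and -0.19, adjusted p = 0.883, 0.842, 0.892 and 0.63). The differences of Smad7, Pmepa1 and Cdkn2b also changed sign when some single libraries were left out. Of 20 tested members of the list of SMAD targets and feedback genes, 1 was called higher (Ctgf) and 3 lower (among them Cdkn1a and Ltbp2). That is 20% of the list, against 2.74% of all tested genes, and the list's median difference was -0.21 against 0.01.

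Receptors and signal transducers showed no called difference. Tgfbr2 fell in each line, with effects of -1.20 ± 0.21 in PD883, -1.57 ± 0.21 in PD454 and -1.57 ± 0.21 in PD7591, and Tgfbr1, Smad3 and Smad4 had differences of 0.29, -0.22 and -0.21 (adjusted p = 0.596, 0.679 and 0.635). Among 23 tested ligands, receptors and SMADs, 2 were called (8.7%, against 2.74% of all tested genes), both lower. Ltbp1, which tethers latent TGFb to the matrix, had 543 and 317 CPM under TGFb and 465 and 242 CPM under DMSO in PD883. It had 366 and 309 CPM under TGFb against 80.6 and 54.6 under DMSO in PD454, and 566 and 528 CPM under TGFb against 126 and 126 under DMSO in PD7591. Its TGFb and DMSO ranges overlapped in PD883 and were apart in the other lines, and the difference was -1.94 ± 0.35, adjusted p = 0.0104. Ltbp2, a related matrix protein, rose less in PD883 (effects 2.02 ± 0.30 in PD883, 4.21 ± 0.33 in PD454 and 3.41 ± 0.29 in PD7591, difference -1.79 ± 0.37, adjusted p = 0.0209), and was chosen after its values were seen. This difference was called against PD454 (-2.19, adjusted p = 0.0162) and not against PD7591 (-1.385, adjusted p = 0.12). Inhba, the activin A subunit, rose in all lines and the difference was -1.18 ± 0.30, adjusted p = 0.0488. Inhba had effects of 3.95 in PD883, 5.66 in PD454 and 4.61 in PD7591. The difference of Inhba was called against PD454 and not against PD7591 (-1.71, adjusted p = 0.0163 against PD454 and -0.66, adjusted p = 0.417 against PD7591). The call did not hold without DMSO PD883 library 7 for Ltbp1 (-1.41, adjusted p = 0.0525) and Ltbp2 (-1.51, adjusted p = 0.147) and without TGFb PD883 library 12 for Ltbp1 (-1.63, adjusted p = 0.0608) and Ltbp2 (-1.42, adjusted p = 0.0741). Inhba was called in 2 of the 12 runs that left out 1 library, those without DMSO PD883 library 8 or TGFb PD7591 library 6; in the rest its difference was -1.32 to -0.76 with an adjusted p up to 0.293, at the end nearest 0 without DMSO PD883 library 7. The call of Inhba was lost under 2 of the 8 other settings, the 12-library fit (adjusted p = 0.103) and limma-voom (adjusted p = 0.0823). Adjusted p was above 0.05 in a fit of the 12 libraries alone for Ltbp2 (0.0519).

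Grem1, a secreted antagonist of bone morphogenetic proteins, was the 1 called member of 15 tested BMP and ID genes (6.67%, against 2.74% of all tested genes). It was already expressed under DMSO in PD883 and close to absent under DMSO in the other lines. Grem1 had 17.9 and 21.7 CPM under TGFb and 2.91 and 1.59 CPM under DMSO in PD883. It had 10.7 and 14 CPM under TGFb against 0.0549 and 0 under DMSO in PD454, and 11.7 and 11.4 CPM under TGFb against 0 and 0.131 under DMSO in PD7591. The groups of TGFb and DMSO libraries did not overlap in any line, and the DMSO libraries of PD883 stood above all other DMSO libraries. In PD883 it rose by 3.16 log2 units. In PD454, 506 counts over the TGFb libraries against 1 over the DMSO libraries gave a ratio of 641.7 (95% counting interval 114.7 to 25400), and in PD7591 452 against 3 counts gave 161 (54.74 to 783.7). The fitted difference was -4.92 ± 0.64, adjusted p = 0.00149, and its size depends on how such low counts are fitted.

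Ctgf (chr10:24595442-24598683), which encodes a matrix-associated growth factor induced by TGFb, rose more in PD883. It had 1741 and 1601 CPM under TGFb and 186 and 161 CPM under DMSO in PD883. It had 420 and 521 CPM under TGFb against 155 and 179.6 under DMSO in PD454, and 1277 and 1252 CPM under TGFb against 208 and 246 under DMSO in PD7591. The TGFb libraries of PD883 were the highest of the 12 and its DMSO libraries overlapped those of PD454. The effect was 3.27 ± 0.19 in PD883, 1.49 ± 0.18 in PD454 and 2.48 ± 0.18 in PD7591, and the difference was 1.28 ± 0.21, adjusted p = 0.00642. Against PD454 alone it was 1.78, adjusted p = 0.00149, and against PD7591 alone 0.79, adjusted p = 0.141.

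**Figure D2:**
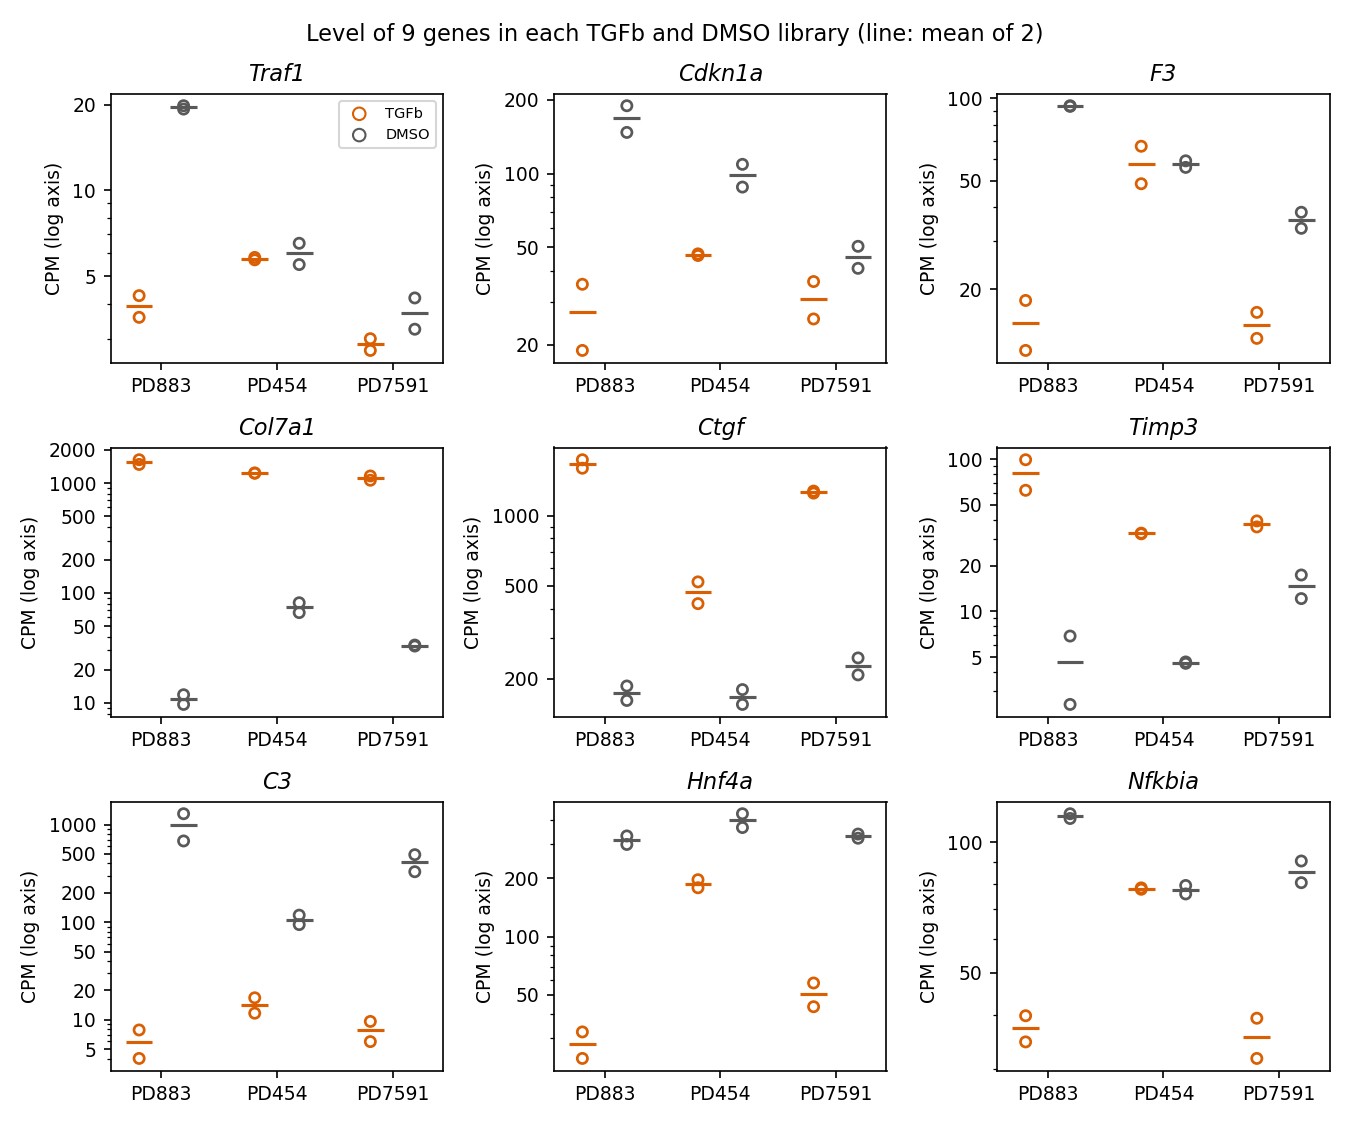
Level in CPM (log axis) of 9 genes in each TGFb library (orange, left of each pair) and DMSO library (grey) of PD883, PD454 and PD7591, with a line at the mean of the 2 libraries. Traf1 is highest in the DMSO libraries of PD883, Col7a1 is lowest in the DMSO libraries of PD883, and Hnf4a is lowest in the TGFb libraries of PD883.

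The clearest higher effect among matrix genes was that of Col7a1 (chr9:108953586-108984875), the collagen of anchoring fibrils under basement membranes. Col7a1 had 1477 and 1630 CPM under TGFb and 11.9 and 9.68 CPM under DMSO in PD883, 1236 and 1228 CPM under TGFb against 81.5 and 66.3 under DMSO in PD454, and 1160 and 1061 CPM under TGFb against 33.6 and 32.9 under DMSO in PD7591. The TGFb libraries of PD883 were the highest and its DMSO libraries the lowest of the 12, with no overlap. The effect was 7.17 ± 0.24 in PD883, 4.06 ± 0.21 in PD454 and 5.06 ± 0.22 in PD7591, and the difference was 2.61 ± 0.23, adjusted p = 0.000284. Under DMSO the level in PD883 stood -2.20 ± 0.18 log2 units from the mean of the other lines, and under TGFb 0.41 ± 0.16.

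Of 26 tested collagens and collagen enzymes, 3 were called (11.5%, against 2.74% of all tested genes) and all of them higher, with a median difference of 0.18 over the list. Col1a1, the main fibrillar collagen chain, had 84.3 and 60.6 CPM under TGFb and 3.99 and 2.14 CPM under DMSO in PD883. It had 15.8 and 16.8 CPM under TGFb against 1.43 and 1.53 under DMSO in PD454, and 4.97 and 7.57 CPM under TGFb against 1.28 and 2.31 under DMSO in PD7591. It was highest in the TGFb PD883 libraries, which overlapped no other group, and the difference was 1.96 ± 0.39, adjusted p = 0.0154, past the threshold against PD7591 (2.80, adjusted p = 0.00697) and not against PD454 (1.13, adjusted p = 0.186). Col1a1 is also 1 of the 12 fibroblast markers, and the part of another cell type in this result was not tested. Serpinh1, the collagen chaperone HSP47, rose more in PD883 (effects 1.66 ± 0.14 in PD883, 0.74 ± 0.13 in PD454 and 0.83 ± 0.13 in PD7591, difference 0.87 ± 0.16, adjusted p = 0.0118), although its level in PD883, 56.1 and 55.2 CPM under TGFb and 19 and 16.2 CPM under DMSO, was below that of the other lines under either treatment (539 and 566 CPM under TGFb in PD454, 597 and 656 CPM under TGFb in PD7591). No difference was called without DMSO PD7591 library 2 for Col1a1 (1.67, adjusted p = 0.0501) and without DMSO PD883 library 8 for Serpinh1 (0.72, adjusted p = 0.053). The threshold was missed without TGFb PD883 library 12 for Serpinh1 (0.86, adjusted p = 0.0584). No call was made either in a fit of the 12 libraries alone for Serpinh1 (0.0519) and without the 4 short-transcript libraries for Col1a1 (0.0654).

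Among 22 tested proteases and inhibitors, 3 were called, all higher: Timp3, Serpine2 and Adam8. Most of the list went the other way: its median difference was -0.23, and 14 of the 22 had a difference below 0. Over all tested genes 1.11% were called higher. Timp3, a matrix-bound inhibitor of metalloproteinases, had 99.1 and 62.4 CPM under TGFb and 6.9 and 2.45 CPM under DMSO in PD883. It had 32.7 and 32.3 CPM under TGFb against 4.66 and 4.57 under DMSO in PD454, and 39.3 and 35.9 CPM under TGFb against 12.2 and 17.4 under DMSO in PD7591. The TGFb PD883 libraries lay above all others, and the difference was 2.05 ± 0.41, adjusted p = 0.0167. In the 12 runs that left out 1 library its difference was 1.43 to 2.94 with an adjusted p up to 0.0461. Serpine2, the protease nexin-1 (chosen after its values were seen), and Adam8, a membrane metalloprotease, had differences of 1.12 and 0.84 (adjusted p = 0.0456 and 0.0283). Serpine2 had effects of 0.46 in PD883, 0.06 in PD454 and -1.36 in PD7591. The difference of Serpine2 was called against PD7591 and not against PD454 (0.40, adjusted p = 0.512 against PD454 and 1.83, adjusted p = 0.00847 against PD7591). Adam8 had effects of 1.22 in PD883, 0.86 in PD454 and -0.09 in PD7591. The difference of Adam8 was called against PD7591 and not against PD454 (0.36, adjusted p = 0.369 against PD454 and 1.32, adjusted p = 0.00703 against PD7591). Timp3 had effects of 4.13 in PD883, 2.82 in PD454 and 1.35 in PD7591. The difference of Timp3 was called against PD7591 and not against PD454 (1.32, adjusted p = 0.143 against PD454 and 2.79, adjusted p = 0.0074 against PD7591). Adam8 was called in none of the 12 runs that left out 1 library, where its difference was 0.72 to 0.90 with an adjusted p up to 0.126. The call of Adam8 was lost under 1 of the 8 other settings, without the short-transcript libraries (adjusted p = 0.0834). Serpine2 was called in 1 of the 12 runs that left out 1 library, that without TGFb PD883 library 11; in the rest its difference was 0.68 to 1.21 with an adjusted p up to 0.321, at the end nearest 0 without TGFb PD883 library 12. The call of Serpine2 was lost under 5 of the 8 other settings, the 12-library fit (adjusted p = 0.077), library totals (adjusted p = 0.0508), limma-voom (adjusted p = 0.0591), length offset (adjusted p = 0.0675) and without the short-transcript libraries (adjusted p = 0.154). Calls also ended in a fit of the 12 libraries alone for Timp3 (0.0644).

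Itga7, an integrin subunit that binds laminin, was the 1 called member of 17 tested integrins (5.88%, against 2.74% of all tested genes). It rose in PD883 and PD7591 and fell in PD454, with effects of 1.55 ± 0.25 in PD883, -1.46 ± 0.19 in PD454 and 0.81 ± 0.20 in PD7591 and a difference of 1.88 ± 0.29, adjusted p = 0.00441. This difference was called against PD454 (3.02, adjusted p = 0.000183) and not against PD7591 (0.74, adjusted p = 0.33). Itga5, the fibronectin receptor subunit, rose in all lines (effects 2.98, 3.64 and 3.41 in PD883, PD454 and PD7591) and its difference of -0.55 was not called (adjusted p = 0.129), though it was without TGFb PD883 library 11 (-0.75, adjusted p = 0.0477) and with DESeq2 (-0.56, adjusted p = 0.0334). Tpm1, a tropomyosin of stress fibres, had a higher effect (1.08 ± 0.21, adjusted p = 0.0128) and Rhob, a small GTPase induced by TGFb, a lower one (-0.70 ± 0.16, adjusted p = 0.0283) among 26 tested actin and contractile genes, whose median difference was 0.02. Both calls together were 7.69% of that list, against 2.74% of all tested genes. Tpm1 had effects of 1.66 in PD883, 0.20 in PD454 and 0.98 in PD7591. The difference of Tpm1 was called against PD454 and not against PD7591 (1.46, adjusted p = 0.00415 against PD454 and 0.69, adjusted p = 0.19 against PD7591). Rhob had effects of 1.58 in PD883, 2.57 in PD454 and 1.9997 in PD7591. The difference of Rhob was called against PD454 and not against PD7591 (-0.99, adjusted p = 0.00921 against PD454 and -0.42, adjusted p = 0.323 against PD7591). Calls were lost without DMSO PD883 library 7 for Rhob (-0.60, adjusted p = 0.162) and Tpm1 (0.98, adjusted p = 0.0891) and without TGFb PD883 library 12 for Rhob (-0.72, adjusted p = 0.11) and Tpm1 (0.79, adjusted p = 0.0955). The call did not hold without DMSO PD7591 library 1 for Rhob (-0.70, adjusted p = 0.0614) and without TGFb PD7591 library 6 for Rhob (-0.74, adjusted p = 0.0529). Adjusted p also exceeded 0.05 in a fit of the 12 libraries alone for Rhob (0.058), without the low-count filter for Rhob (0.0507) and with a transcript length offset for Rhob (0.051).

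Of 26 tested laminins and matrix glycoproteins, 2 were called (7.69%, against 2.74% of all tested genes) and both lower, with a median difference of -0.23 over the list. One of them was Lama3, a laminin chain of the basement membrane under epithelia. Lama3 had 0.744 and 0.429 CPM under TGFb and 8.67 and 2.23 CPM under DMSO in PD883, and its difference was -4.16 ± 0.68, adjusted p = 0.00626. It had 2.74 and 1.98 CPM under TGFb against 2.41 and 1.02 under DMSO in PD454. In PD7591 it had 4.01 and 4.73 CPM under TGFb against 1.92 and 1.66 under DMSO. DMSO PD883 library 8 lay within the range of DMSO PD454, and library 7 stood above all other DMSO libraries. Lama3 had effects of -3.25 in PD883, 0.52 in PD454 and 1.29 in PD7591. The difference of Lama3 was called against each line (-3.77, adjusted p = 0.0167 against PD454 and -4.55, adjusted p = 0.00743 against PD7591). The call of Lama3 was lost without TGFb PD883 library 12 (-3.78, adjusted p = 0.0522).

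Further genes with a higher effect in PD883 were chosen after their values were seen, for calls that held in each run that left out 1 library. Aif1l, an actin-bundling protein, had 134 and 169 CPM under TGFb and 2.57 and 4.23 CPM under DMSO in PD883. It had 182 and 206 CPM under TGFb against 45.6 and 52.3 under DMSO in PD454, and 80.8 and 82.8 CPM under TGFb against 7.83 and 6.67 under DMSO in PD7591. The difference was 2.72 ± 0.31, adjusted p = 0.000586. Fut4, a fucosyltransferase that makes the Lewis x epitope, had a difference of 3.07 ± 0.33, adjusted p = 0.000586, and both genes were also called against each other line. Cthrc1, a secreted collagen triple helix protein, and Prss23, a secreted serine protease, rose by 5.31 and 5.39 log2 units in PD883, with differences of 2.15 ± 0.34 and 2.10 ± 0.32. Each was called against PD454 (3.17, adjusted p = 0.000343; 3.11, adjusted p = 0.000406) and not against PD7591 (1.13, adjusted p = 0.263; 1.09, adjusted p = 0.169).

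Promoter sequences are printed for 3 genes, Col7a1 with a higher and F3 and Nfkbia with a lower effect, because they show a match to the short motif of a SMAD, AP-1 or NF-kB protein. They run from 250 bases before to 50 after the start site in RefSeq on GRCm38.p6, and capitals mark the match. For Col7a1 (chr9:108953336-108953635, plus strand) the capitals mark the SMAD box on the opposite strand (CAGACA). For F3 (chr3:121723287-121723586, plus strand) they mark AP-1 motifs (TGANTCA), and for Nfkbia (chr12:55492598-55492897, minus strand) the kappa B motif on the opposite strand.
Col7a1: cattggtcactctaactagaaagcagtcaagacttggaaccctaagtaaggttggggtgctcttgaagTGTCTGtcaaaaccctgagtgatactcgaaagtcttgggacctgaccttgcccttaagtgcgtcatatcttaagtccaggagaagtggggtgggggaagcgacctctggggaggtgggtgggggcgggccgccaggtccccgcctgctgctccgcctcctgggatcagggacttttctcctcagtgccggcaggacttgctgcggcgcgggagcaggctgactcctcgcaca
F3: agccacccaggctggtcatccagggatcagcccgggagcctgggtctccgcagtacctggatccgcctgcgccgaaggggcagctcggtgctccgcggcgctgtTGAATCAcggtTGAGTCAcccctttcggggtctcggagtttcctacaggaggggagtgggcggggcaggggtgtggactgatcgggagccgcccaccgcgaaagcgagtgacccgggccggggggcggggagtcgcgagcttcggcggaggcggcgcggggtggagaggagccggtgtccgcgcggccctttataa
Nfkbia: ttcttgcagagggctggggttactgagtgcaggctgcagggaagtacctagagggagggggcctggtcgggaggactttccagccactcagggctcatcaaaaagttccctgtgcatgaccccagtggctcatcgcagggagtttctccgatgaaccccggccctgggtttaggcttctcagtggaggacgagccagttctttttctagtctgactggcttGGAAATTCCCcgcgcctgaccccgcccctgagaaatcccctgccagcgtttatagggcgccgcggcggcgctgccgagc
Both strands were searched, and the motifs do not overlap each other in these windows. Promoters were found for 118 of the 154 genes with a higher effect, 173 of the 225 with a lower effect and 10721 of all tested genes. These genes had 159, 241 and 13590 promoters, the totals for the shares below. The SMAD box was in 18.9% of the promoters of genes with a higher effect, 17.4% of those with a lower effect and 16.3% of all, the AP-1 motif in 5.66%, 9.13% and 5.68%, and the kappa B motif in 1.26%, 0.83% and 0.442%. The E-box CAGGTG, which ZEB and SNAIL proteins bind, was in 19.5%, 24.9% and 18.4%, and CAAAGTCCA, a site form of HNF4 proteins, in 0%, 0.415% and 0.442%. In numbers, the kappa B motif was in 2, 2 and 60 promoters and the HNF4 form in 0, 1 and 60. A match in these letters is not a bound site, and these shares are a description.

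F3 (chr3:121723537-121735048), which encodes tissue factor, the initiator of blood coagulation, fell further in PD883. F3, whose promoter with its pair of AP-1 matches is printed above, had 18.2 and 12 CPM under TGFb and 94 and 93.5 CPM under DMSO in PD883. It had 48.7 and 66.8 CPM under TGFb against 55.9 and 59.1 under DMSO in PD454, and 16.5 and 13.2 CPM under TGFb against 33.5 and 38.3 under DMSO in PD7591. The TGFb and DMSO libraries did not overlap in PD883 or in PD7591 and did overlap in PD454. The effect was -2.64 ± 0.20 in PD883, 0.01 ± 0.19 in PD454 and -1.27 ± 0.20 in PD7591, the difference was -2.01 ± 0.24, adjusted p = 0.000849, and it was called against each line (-2.65, adjusted p = 0.000183 against PD454; -1.37, adjusted p = 0.0201 against PD7591). F3 was the 1 called of 17 tested members of the list of YAP and TAZ targets (5.88%, against 2.74% of all tested genes), whose median difference was 0.14. Ctgf, called higher (1.28), was placed in the list of SMAD targets and is not among these 17.

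Nfkbia (chr12:55489410-55492647), the inhibitor IkB-alpha that NF-kB itself induces, led the 4 calls among 32 tested chemokine, cytokine and NF-kB genes (12.5%, against 2.74% of all tested genes), all lower, with a median difference of -0.56 over the list. It had 34.7 and 39.8 CPM under TGFb and 113 and 116 CPM under DMSO in PD883. It had 78.5 and 77.9 CPM under TGFb against 79.5 and 76 under DMSO in PD454, and 39.3 and 31.8 CPM under TGFb against 80.7 and 90.5 under DMSO in PD7591. Under TGFb the PD883 and PD7591 libraries overlapped at the low end and the PD454 libraries stood at their DMSO level. The difference of -0.99 ± 0.17, adjusted p = 0.00733 was called against PD454 (-1.63, adjusted p = 0.000451) and not against PD7591 (-0.35, adjusted p = 0.456). Icam1, an adhesion molecule for leukocytes, fell in all 3 lines and furthest in PD883, with effects of -3.18 ± 0.22 in PD883, -1.63 ± 0.20 in PD454 and -2.44 ± 0.21 in PD7591 and a difference of -1.14 ± 0.25, adjusted p = 0.0278. This difference was called against PD454 (-1.54, adjusted p = 0.0103) and not against PD7591 (-0.74, adjusted p = 0.263). Nfkb1, the p105 precursor, and Tnfaip3, the deubiquitinase A20, had differences of -0.60 and -0.73 (adjusted p = 0.0456 and 0.0452; both outside the naming rule and chosen with their values in view). Nfkb1 had effects of -0.35 in PD883, 0.64 in PD454 and -0.14 in PD7591. The difference of Nfkb1 was called against PD454 and not against PD7591 (-0.99, adjusted p = 0.00637 against PD454 and -0.22, adjusted p = 0.633 against PD7591). Tnfaip3 had effects of -1.31 in PD883, -0.32 in PD454 and -0.84 in PD7591. The difference of Tnfaip3 was called against PD454 and not against PD7591 (-0.99, adjusted p = 0.0174 against PD454 and -0.47, adjusted p = 0.33 against PD7591). The call of Icam1 was lost without DMSO PD7591 library 1 (-1.13, adjusted p = 0.0587), without DMSO PD883 library 8 (-0.92, adjusted p = 0.0667) and without TGFb PD7591 library 6 (-1.18, adjusted p = 0.0514). It was lost too without TGFb PD883 library 11 (-1.08, adjusted p = 0.0606) and without TGFb PD883 library 12 (-1.28, adjusted p = 0.0779). Nfkb1 was called in 3 of the 12 runs that left out 1 library, those without DMSO PD454 library 13, DMSO PD883 library 8 or TGFb PD454 library 18; in the rest its difference was -0.68 to -0.52 with an adjusted p up to 0.221. The call of Nfkb1 was lost under 5 of the 8 other settings, the 12-library fit (adjusted p = 0.077), library totals (adjusted p = 0.0526), no low-count filter (adjusted p = 0.115), length offset (adjusted p = 0.0747) and without the short-transcript libraries (adjusted p = 0.077). Tnfaip3 was called in 4 of the 12 runs that left out 1 library, those without DMSO PD454 library 13, DMSO PD883 library 8, TGFb PD7591 library 6 or TGFb PD883 library 11; in the rest its difference was -0.80 to -0.63 with an adjusted p up to 0.217. The call of Tnfaip3 was lost under 3 of the 8 other settings, the 12-library fit (adjusted p = 0.0804), library totals (adjusted p = 0.0512) and without the short-transcript libraries (adjusted p = 0.119). The threshold was also missed without the 4 short-transcript libraries for Icam1 (0.123).

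Traf1, a receptor adaptor that is also induced by NF-kB, lay outside the list and was chosen after its values were seen. It had 3.58 and 4.27 CPM under TGFb and 19.8 and 19.3 CPM under DMSO in PD883. It had 5.7 and 5.81 CPM under TGFb against 5.49 and 6.52 under DMSO in PD454, and 3.01 and 2.74 CPM under TGFb against 3.25 and 4.19 under DMSO in PD7591. The DMSO PD883 libraries stood alone above the other 10 libraries, and the TGFb PD883 libraries overlapped the rest. The effect was -2.31 ± 0.19 in PD883, -0.07 ± 0.19 in PD454 and -0.38 ± 0.21 in PD7591, and the difference, -2.09 ± 0.23, adjusted p = 0.000586, was called against each line.

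C3 (chr17:57203970-57228136), the central complement component, fell in all 3 lines and furthest in PD883. C3, chosen after its values were seen, had 7.86 and 4.01 CPM under TGFb and 1290 and 679 CPM under DMSO in PD883. It had 16.8 and 11.7 CPM under TGFb against 118 and 94.3 under DMSO in PD454, and 5.97 and 9.61 CPM under TGFb against 328 and 491 under DMSO in PD7591. The TGFb and DMSO libraries were apart in every line, the DMSO libraries of PD883 were the highest of the 12, and library 11 of TGFb PD883 overlapped the range of TGFb PD7591. The effect was -7.40 ± 0.45 in PD883, -2.90 ± 0.37 in PD454 and -5.71 ± 0.42 in PD7591, and the difference was -3.09 ± 0.45, adjusted p = 0.00345, called against PD454 (-4.50, adjusted p = 0.000406) and not against PD7591 (-1.69, adjusted p = 0.129).

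Of 20 tested pancreatic and foregut lineage factors, Hnf4a and Foxa2 were called (10%, against 2.74% of all tested genes), both lower, with a median difference of -0.29 over the list. Hnf4a (chr2:163506808-163572910), a nuclear receptor of gut, liver and pancreas epithelium, had 32.2 and 23.5 CPM under TGFb and 332 and 299.6 CPM under DMSO in PD883. It had 197 and 179 CPM under TGFb against 432 and 366 under DMSO in PD454, and 43.5 and 57.6 CPM under TGFb against 323 and 339 under DMSO in PD7591. Under DMSO PD883 stood -0.20 ± 0.17 log2 units from the others, and under TGFb the PD883 libraries were the lowest without overlap (-1.81 ± 0.18). The effect was -3.51 ± 0.21 in PD883, -1.09 ± 0.19 in PD454 and -2.71 ± 0.20 in PD7591, and the difference was -1.61 ± 0.24, adjusted p = 0.00355, called against PD454 (-2.42, adjusted p = 0.000343) and not against PD7591 (-0.80, adjusted p = 0.185). Foxa2, a pioneer factor of endoderm, fell by more in PD883 as well, with a difference of -0.95 ± 0.22, adjusted p = 0.032. Foxa2 had effects of -3.15 in PD883, -1.83 in PD454 and -2.58 in PD7591. The difference of Foxa2 was called against PD454 and not against PD7591 (-1.32, adjusted p = 0.011 against PD454 and -0.57, adjusted p = 0.33 against PD7591). The call of Foxa2 was lost without DMSO PD7591 library 1 (-0.98, adjusted p = 0.0555), without DMSO PD883 library 7 (-0.90, adjusted p = 0.112) and without TGFb PD7591 library 5 (-0.99, adjusted p = 0.0509). It was lost too without TGFb PD7591 library 6 (-0.99, adjusted p = 0.0514) and without TGFb PD883 library 12 (-0.71, adjusted p = 0.164). Adjusted p was above 0.05 in a fit of the 12 libraries alone for Foxa2 (0.0584) and without the 4 short-transcript libraries for Foxa2 (0.12).

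Of 26 tested epithelial junction and identity genes, 20 fell and 1 rose with TGFb in PD883, where 2766 (20%) of all tested genes fell and 2546 (18.4%) rose, and the median effect was -2.38 in PD883, -1.54 in PD454 and -1.45 in PD7591. The difference was called for 3 genes (11.5%, against 2.74% of all tested genes), all lower, with a median difference of -0.45 over the list. Ehf, an epithelial ETS factor, had 3.9 and 2.8 CPM under TGFb and 40.5 and 33.5 CPM under DMSO in PD883. It had 6.02 and 4.52 CPM under TGFb against 6.03 and 4.9 under DMSO in PD454, and 4.7 and 5.97 CPM under TGFb against 33.1 and 41.1 under DMSO in PD7591. It fell in PD883 and PD7591 and did not change detectably in PD454, where it was low, and the difference was -2.06 ± 0.28, adjusted p = 0.0023. Cldn3, a tight junction claudin, fell by 2.76 log2 units in PD883, to 2.42 and 1.31 CPM under TGFb against 13.5 and 10.9 CPM under DMSO, and was low under either treatment in the other lines (-2.31 ± 0.48, adjusted p = 0.0209). Its effects there were -0.43 in PD454 and -0.47 in PD7591. This difference was called against PD454 (-2.33, adjusted p = 0.0387) and not against PD7591 (-2.29, adjusted p = 0.0732). Marveld2, the tight junction protein tricellulin, fell further in PD883 (-1.27 ± 0.31, adjusted p = 0.0424; chosen with its values in view). Ehf had effects of -3.48 in PD883, -0.05 in PD454 and -2.80 in PD7591. The difference of Ehf was called against PD454 and not against PD7591 (-3.43, adjusted p = 0.000125 against PD454 and -0.69, adjusted p = 0.365 against PD7591). Marveld2 had effects of -3.48 in PD883, -2.15 in PD454 and -2.27 in PD7591. The difference of Marveld2 was called against PD454 and not against PD7591 (-1.33, adjusted p = 0.0424 against PD454 and -1.22, adjusted p = 0.138 against PD7591). The call of Cldn3 was lost without DMSO PD883 library 7 (-2.16, adjusted p = 0.073), without TGFb PD454 library 18 (-1.91, adjusted p = 0.065) and without TGFb PD883 library 12 (-1.91, adjusted p = 0.121). Marveld2 was called in none of the 12 runs that left out 1 library, where its difference was -1.48 to -1.19 with an adjusted p up to 0.14. The call of Marveld2 was lost under 3 of the 8 other settings, library totals (adjusted p = 0.0564), limma-voom (adjusted p = 0.126) and without the short-transcript libraries (adjusted p = 0.177). No call was made either in a fit of the 12 libraries alone for Cldn3 (0.0719) and without the 4 short-transcript libraries for Cldn3 (0.0878).

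Cdh1, which encodes E-cadherin, fell in each line, with effects of -4.21 ± 0.36 in PD883, -2.28 ± 0.33 in PD454 and -3.68 ± 0.35 in PD7591. Its difference of -1.23 was not called (adjusted p = 0.122), but it was without TGFb PD883 library 11 (-2.15, adjusted p = 0.00303), with DESeq2 (-1.24, adjusted p = 0.04) and without the 4 short-transcript libraries (-0.95, adjusted p = 0.0368). Krt19, a ductal keratin, fell in each line too. Its TGFb PD883 libraries differed widely, 60.6 and 7.32 CPM, and the difference of 0.31 (adjusted p = 0.876) became -1.92 (adjusted p = 0.016) without library 11 and changed sign with limma-voom as well. Of 16 tested keratins and desmosomal genes 1 was called (6.25%, against 2.74% of all tested genes). That was Krt8, the partner of keratin 18 (-0.86 ± 0.19, adjusted p = 0.0278), with 1495 and 1376 CPM under TGFb and 2673 and 2396 CPM under DMSO in PD883. Krt8 has many pseudogene copies, and how the authors' counting treated reads shared with them is not known. Krt8 had effects of -0.82 in PD883, 0.18 in PD454 and -0.10 in PD7591. The difference of Krt8 was called against PD454 and not against PD7591 (-0.9986, adjusted p = 0.0226 against PD454 and -0.72, adjusted p = 0.13 against PD7591). The call of Krt8 was lost without DMSO PD7591 library 2 (-0.86, adjusted p = 0.056), without DMSO PD883 library 7 (-0.79, adjusted p = 0.129) and without TGFb PD7591 library 5 (-0.90, adjusted p = 0.0509). It was lost too without TGFb PD7591 library 6 (-0.90, adjusted p = 0.0529) and without TGFb PD883 library 12 (-0.83, adjusted p = 0.127). Calls also ended with a transcript length offset for Krt8 (0.0753).

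None of 12 tested EMT transcription factors and none of 15 tested mesenchymal markers was called in either direction by edgeR. At an unadjusted p under 0.05 there were 5 and 3, DESeq2 called 0 and 2, and limma-voom called none, with median differences of -0.21 and -0.41. Over all 13827 tested genes 2300 had an unadjusted p under 0.05, DESeq2 called 768 and limma-voom called 321. In PD883 itself 8 of the 12 transcription factors rose and none fell, where 18.4% of all tested genes rose and 20% fell. Snai1, a repressor of E-cadherin, rose in each line (2.65 ± 0.32 in PD883, 3.80 ± 0.36 in PD454 and 4.14 ± 0.41 in PD7591), and Zeb2, another such repressor, did as well (2.50 ± 0.25 in PD883, 3.34 ± 0.27 in PD454 and 3.09 ± 0.26 in PD7591). Their differences of -1.32 and -0.72 had an adjusted p of 0.122 and 0.241, but Snai1 was called without DMSO PD454 library 13 (-1.74, adjusted p = 0.022) or without the low-count filter (-1.33, adjusted p = 0.0257), and Zeb2 without DMSO PD883 library 8 (-1.15, adjusted p = 0.0216). Zeb1 rose in PD883 and PD454, and its difference was -0.03 (adjusted p = 0.985), with a sign that changed between settings. Fn1, fibronectin, rose in each line (3.89, 4.42 and 5.09 in PD883, PD454 and PD7591), with a difference of -0.86 that was called without DMSO PD883 library 8 (-1.45, adjusted p = 0.0345). Vim, the mesenchymal intermediate filament, had a difference of -0.83 (adjusted p = 0.0859). It was called without DMSO PD883 library 8 (-1.10, adjusted p = 0.0235), without TGFb PD883 library 11 (-1.11, adjusted p = 0.0326), with DESeq2 (-0.85, adjusted p = 0.0137), without the low-count filter (-0.85, adjusted p = 0.0242) and without the 4 short-transcript libraries (-0.95, adjusted p = 0.0339).

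Cdkn1a (chr17:29090976-29100727), the cell cycle inhibitor p21, fell in PD883 and in PD454 and by more in PD883. Cdkn1a had 35.3 and 19 CPM under TGFb and 189 and 147 CPM under DMSO in PD883. It had 46.3 and 47 CPM under TGFb against 88.1 and 109 under DMSO in PD454, and 36.2 and 25.5 CPM under TGFb against 41 and 50.5 under DMSO in PD7591. The DMSO PD883 libraries were the highest of the 12 without overlap, and TGFb PD883 library 11 lay within the range of TGFb PD7591. The effect was -2.64 ± 0.26 in PD883, -1.08 ± 0.24 in PD454 and -0.57 ± 0.24 in PD7591, and the difference was -1.81 ± 0.30, adjusted p = 0.00632, called against each line. It belonged to 23 tested cell cycle inhibitors and p53 targets, of which 2 were called higher and 4 lower with a median difference of -0.11. These calls were 26.1% of the list, against 2.74% of all tested genes.

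The other lower calls of that list were Btg2, Pmaip1 and Fas. Btg2, an antiproliferative p53 target, had 21.8 and 27 CPM under TGFb and 53.3 and 65.6 CPM under DMSO in PD883. It had 16.9 and 24.6 CPM under TGFb against 17.9 and 18.4 under DMSO in PD454, and 30.9 and 26.3 CPM under TGFb against 16.7 and 18.3 under DMSO in PD7591. The DMSO PD883 libraries stood above the other 10. The difference was -1.73 ± 0.25, adjusted p = 0.00342, called against each line. Pmaip1, the BH3-only protein NOXA, and Fas, a death receptor, fell by 1.33 log2 units and fell by 4.04 in PD883, with differences of -1.06 and -2.0047 (adjusted p = 0.0129 and 0.0395; both outside the naming rule and chosen with their values in view). The higher calls were Ccnd1, cyclin D1 (0.91 ± 0.19, adjusted p = 0.0181), and Plk2, a polo-like kinase (0.93 ± 0.19, adjusted p = 0.0198). None of 31 S phase and 27 mitotic genes was called by edgeR, DESeq2 or limma-voom. An unadjusted p under 0.05 was found for 1 and 0 of them, against 2300 of all 13827 tested genes. Their median differences were 0.43 and 0.18, against 0.01 over all tested genes. Of the S phase genes 2 and of the mitotic genes 5 had a difference below 0, against 6818 of the 13827 tested genes. Pmaip1 had effects of -1.33 in PD883, -0.64 in PD454 and 0.09 in PD7591. The difference of Pmaip1 was called against PD7591 and not against PD454 (-0.69, adjusted p = 0.117 against PD454 and -1.42, adjusted p = 0.00697 against PD7591). Fas had effects of -4.04 in PD883, -0.89 in PD454 and -3.19 in PD7591. The difference of Fas was called against PD454 and not against PD7591 (-3.16, adjusted p = 0.00415 against PD454 and -0.85, adjusted p = 0.566 against PD7591). Ccnd1 had effects of 0.63 in PD883, -0.50 in PD454 and -0.06 in PD7591. The difference of Ccnd1 was called against PD454 and not against PD7591 (1.13, adjusted p = 0.011 against PD454 and 0.69, adjusted p = 0.139 against PD7591). Plk2 had effects of 2.07 in PD883, 0.53 in PD454 and 1.75 in PD7591. The difference of Plk2 was called against PD454 and not against PD7591 (1.54, adjusted p = 0.00196 against PD454 and 0.32, adjusted p = 0.573 against PD7591). The call of Pmaip1 was lost without DMSO PD883 library 7 (-0.87, adjusted p = 0.078) and without TGFb PD883 library 12 (-1.07, adjusted p = 0.0608). Fas was called in 1 of the 12 runs that left out 1 library, that without DMSO PD454 library 14; in the rest its difference was -2.69 to -1.73 with an adjusted p up to 0.0986. The call of Fas was lost under 3 of the 8 other settings, the 12-library fit (adjusted p = 0.0539), limma-voom (adjusted p = 0.0563) and without the short-transcript libraries (adjusted p = 0.102). Ccnd1 was called in 5 of the 12 runs that left out 1 library, those without DMSO PD454 library 13, DMSO PD454 library 14, TGFb PD454 library 17, TGFb PD454 library 18 or TGFb PD883 library 11; in the rest its difference was 0.81 to 0.97 with an adjusted p up to 0.0911. The call of Ccnd1 was lost under 1 of the 8 other settings, without the short-transcript libraries (adjusted p = 0.0648). Plk2 was called in 6 of the 12 runs that left out 1 library, those without DMSO PD454 library 13, DMSO PD454 library 14, TGFb PD454 library 17, TGFb PD454 library 18, TGFb PD7591 library 5 or TGFb PD883 library 11; in the rest its difference was 0.79 to 1.01 with an adjusted p up to 0.118. The call of Plk2 was lost under 1 of the 8 other settings, without the short-transcript libraries (adjusted p = 0.169).

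Of 28 tested AP-1 and immediate early genes, 3 were called (10.7%, against 2.74% of all tested genes) and all of them lower, with a median difference of -0.36. Egr1, an early growth response factor, had 46.1 and 36.4 CPM under TGFb and 47.4 and 35.8 CPM under DMSO in PD883. It had 69.8 and 66.9 CPM under TGFb against 45.7 and 43.2 under DMSO in PD454, and 214 and 189.9 CPM under TGFb against 47.4 and 54.4 under DMSO in PD7591. It rose in PD7591 and PD454 and did not change detectably in PD883, with a difference of -1.32 ± 0.20, adjusted p = 0.00441, called against PD7591 (-2.0040, adjusted p = 0.000803) and not against PD454 (-0.63, adjusted p = 0.149). Egr2, its relative, rose in each line and by less in PD883 (-2.30 ± 0.51, adjusted p = 0.0283; chosen with its values in view). Dusp1, a phosphatase of MAP kinases, had 47.6 and 42.2 CPM under TGFb and 184 and 121 CPM under DMSO in PD883, with a difference of -1.43 ± 0.30, adjusted p = 0.0203. Egr2 had effects of 2.19 in PD883, 5.00 in PD454 and 3.98 in PD7591. The difference of Egr2 was called against PD454 and not against PD7591 (-2.81, adjusted p = 0.0172 against PD454 and -1.79, adjusted p = 0.224 against PD7591). Dusp1 had effects of -1.76 in PD883, -0.94 in PD454 and 0.26 in PD7591. The difference of Dusp1 was called against PD7591 and not against PD454 (-0.82, adjusted p = 0.199 against PD454 and -2.03, adjusted p = 0.0076 against PD7591). No difference was called without DMSO PD883 library 7 for Dusp1 (-1.11, adjusted p = 0.113) and Egr2 (-2.27, adjusted p = 0.0917) and without TGFb PD883 library 12 for Dusp1 (-1.37, adjusted p = 0.106) and Egr2 (-1.83, adjusted p = 0.0733). The threshold was missed without DMSO PD7591 library 2 for Egr2 (-2.13, adjusted p = 0.0726) and without TGFb PD7591 library 6 for Egr2 (-2.35, adjusted p = 0.0508). Adjusted p also exceeded 0.05 without the 4 short-transcript libraries for Egr2 (0.117) and with limma-voom for Egr2 (0.0613).

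Ndrg1, which hypoxia and differentiation induce, had 380 and 221 CPM under TGFb and 1136 and 805 CPM under DMSO in PD883. It had 303 and 339 CPM under TGFb against 192 and 151 under DMSO in PD454, and 239 and 266 CPM under TGFb against 275 and 374 under DMSO in PD7591. The difference was -1.96 ± 0.33, adjusted p = 0.00632, called against PD454 (-2.60, adjusted p = 0.00196) and not against PD7591 (-1.33, adjusted p = 0.0985). Slc2a3, a glucose transporter near 0 CPM in PD883 under either treatment (0.418 and 0.404 CPM under TGFb, 0.285 and 0.454 CPM under DMSO), fell in PD454 to 0.369 and 0.323 CPM under TGFb, against 3.18 and 3.33 CPM under DMSO, and had a difference of 2.98 ± 0.70, adjusted p = 0.0369. These were the calls among 27 tested glycolysis and hypoxia genes (7.41%, against 2.74% of all tested genes), whose median difference was -0.59. Gclc, the catalytic subunit of glutathione synthesis, fell in each line, with a difference of -0.78 ± 0.15, adjusted p = 0.0158, and Ugt1a6a, a glucuronosyltransferase that shares exons with its Ugt1a neighbours, one of -1.30 ± 0.30, adjusted p = 0.036. They were 2 of 30 tested NRF2 and detoxification genes (6.67%, against 2.74% of all tested genes). Slc2a3 had effects of 0.12 in PD883, -3.22 in PD454 and -2.49 in PD7591. The difference of Slc2a3 was called against PD454 and not against PD7591 (3.34, adjusted p = 0.0243 against PD454 and 2.61, adjusted p = 0.185 against PD7591). Gclc had effects of -3.79 in PD883, -2.69 in PD454 and -3.35 in PD7591. The difference of Gclc was called against PD454 and not against PD7591 (-1.11, adjusted p = 0.00400 against PD454 and -0.44, adjusted p = 0.275 against PD7591). Ugt1a6a had effects of -5.07 in PD883, -1.44 in PD454 and -6.12 in PD7591. The difference of Ugt1a6a was called against PD454 and not against PD7591 (-3.63, adjusted p = 1.05e-05 against PD454 and 1.04, adjusted p = 0.253 against PD7591). The call of Gclc was lost without DMSO PD883 library 7 (-0.69, adjusted p = 0.091). Slc2a3 was called in 3 of the 12 runs that left out 1 library, those without DMSO PD883 library 8, TGFb PD7591 library 5 or TGFb PD7591 library 6; in the rest its difference was 2.69 to 3.01 with an adjusted p up to 0.162. The call of Slc2a3 was lost under 2 of the 8 other settings, the 12-library fit (adjusted p = 0.0891) and without the short-transcript libraries (adjusted p = 0.159). Ugt1a6a was called in 5 of the 12 runs that left out 1 library, those without DMSO PD454 library 13, DMSO PD7591 library 2, DMSO PD883 library 8, TGFb PD454 library 18 or TGFb PD883 library 12; in the rest its difference was -1.36 to -1.07 with an adjusted p up to 0.122. The call of Ugt1a6a was lost under 2 of the 8 other settings, the 12-library fit (adjusted p = 0.0579) and limma-voom (adjusted p = 0.0747). Without TGFb PD7591 library 6 the difference of Slc2a3 was 5.08.

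Of 28 integrated stress response genes 21 fell in PD883 (20% of all tested genes did), 27 had a difference below 0 (median -0.43), as had 6818 of the 13827 tested genes, and Cbs, of cysteine synthesis, was the 1 called (-1.31 ± 0.28, adjusted p = 0.0239). Herpud1, of ER-associated degradation, was the 1 called of 21 ER genes (-0.89 ± 0.20, adjusted p = 0.0283). These calls were 3.57% of the stress response list and 4.76% of the ER list, against 2.74% of all tested genes. Cbs had effects of -1.88 in PD883, -0.84 in PD454 and -0.31 in PD7591. The difference of Cbs was called against PD7591 and not against PD454 (-1.05, adjusted p = 0.0935 against PD454 and -1.58, adjusted p = 0.0249 against PD7591). Herpud1 had effects of -2.91 in PD883, -1.72 in PD454 and -2.31 in PD7591. The difference of Herpud1 was called against PD454 and not against PD7591 (-1.19, adjusted p = 0.0123 against PD454 and -0.60, adjusted p = 0.259 against PD7591). Calls were lost without DMSO PD883 library 7 for Cbs (-1.06, adjusted p = 0.129) and Herpud1 (-0.71, adjusted p = 0.147) and without TGFb PD7591 library 6 for Cbs (-1.22, adjusted p = 0.0513) and Herpud1 (-0.88, adjusted p = 0.0532). The call did not hold without TGFb PD883 library 12 for Cbs (-1.20, adjusted p = 0.127) and Herpud1 (-0.89, adjusted p = 0.118) and without DMSO PD7591 library 1 for Herpud1 (-0.88, adjusted p = 0.0547). The threshold was also missed in a fit of the 12 libraries alone for Cbs (0.0675) and without the 4 short-transcript libraries for Cbs (0.0627).

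Among 35 tested growth factors and receptors, Sema3c and Fgf1 were called (5.71%, against 2.74% of all tested genes), both lower. Sema3c, a secreted semaphorin, had 2.37 and 3.1 CPM under TGFb and 80.2 and 83.5 CPM under DMSO in PD883. It had 9.55 and 9.36 CPM under TGFb against 76.8 and 65.9 under DMSO in PD454, and 11.7 and 8.16 CPM under TGFb against 90.8 and 88.2 under DMSO in PD7591. The DMSO libraries of PD883 lay between those of PD454 and those of PD7591, the TGFb PD883 libraries were the lowest of the 12, and the difference of -1.84 ± 0.33, adjusted p = 0.0104 was called against each line. Fgf1, a fibroblast growth factor, fell to 2.88 and 1.67 CPM in TGFb PD883 libraries against 173 and 156 CPM in DMSO PD883 libraries, with a difference of -1.34 ± 0.27, adjusted p = 0.0154. Fgf1 had effects of -6.22 in PD883, -6.03 in PD454 and -3.74 in PD7591. The difference of Fgf1 was called against PD7591 and not against PD454 (-0.20, adjusted p = 0.773 against PD454 and -2.49, adjusted p = 0.00142 against PD7591). The call of Fgf1 was lost without DMSO PD883 library 7 (-1.28, adjusted p = 0.0581) and without TGFb PD883 library 12 (-0.98, adjusted p = 0.0917). Adjusted p was above 0.05 without the 4 short-transcript libraries for Fgf1 (0.114) and Sema3c (0.13).

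Gastric and mucous genes gave 3 calls of 19, all higher: Muc1, a membrane mucin (2.09 ± 0.44, adjusted p = 0.0209), Muc6, a gastric gland mucin (4.24 ± 0.95, adjusted p = 0.0283), and Cldn18, a gastric claudin (1.66 ± 0.40, adjusted p = 0.0427; chosen with its values in view). The median difference over this list was 0.03, and 9 of the 19 had a difference below 0. Its 3 calls were 15.8% of the list, against 2.74% of all tested genes. Cldn18 had 396 and 352 CPM under TGFb and 1789 and 1174 CPM under DMSO in PD883 and less than 5 CPM in every library of the other lines. Muc6 was below 1 CPM in the 12 DMSO and TGFb libraries, and in PD454 its 2 counts under TGFb against 31 under DMSO gave a ratio of 12.22 in the direction of a fall (95% counting interval 3.11 to 105.4). Its difference was called against PD454 (5.28, adjusted p = 0.0211) and not against PD7591 (3.19, adjusted p = 0.183). Muc1 had effects of -2.43 in PD883, -4.23 in PD454 and -4.80 in PD7591. The difference of Muc1 was called against PD7591 and not against PD454 (1.80, adjusted p = 0.0538 against PD454 and 2.37, adjusted p = 0.0231 against PD7591). Cldn18 had effects of -1.99 in PD883, -2.89 in PD454 and -4.39 in PD7591. The difference of Cldn18 was called against PD7591 and not against PD454 (0.91, adjusted p = 0.285 against PD454 and 2.41, adjusted p = 0.0443 against PD7591). The call of Muc1 was lost without DMSO PD883 library 7 (1.83, adjusted p = 0.0971), without TGFb PD7591 library 6 (2.0020, adjusted p = 0.0517) and without TGFb PD883 library 12 (1.99, adjusted p = 0.207). Muc6 was called in 3 of the 12 runs that left out 1 library, those without DMSO PD454 library 14, DMSO PD883 library 7 or TGFb PD883 library 11; in the rest its difference was 3.29 to 4.32 with an adjusted p up to 0.293. The call of Muc6 was lost under 2 of the 8 other settings, the 12-library fit (adjusted p = 0.0644) and without the short-transcript libraries (adjusted p = 0.336). Cldn18 was called in 2 of the 12 runs that left out 1 library, those without DMSO PD883 library 7 or TGFb PD454 library 17; in the rest its difference was 1.31 to 2.08 with an adjusted p up to 0.16. The call of Cldn18 was lost under 3 of the 8 other settings, the 12-library fit (adjusted p = 0.108), limma-voom (adjusted p = 0.0652) and without the short-transcript libraries (adjusted p = 0.0727). No call was made either without the 4 short-transcript libraries for Muc1 (0.151) and with limma-voom for Muc1 (0.0688).

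No member was called by edgeR or limma-voom among 26 interferon-stimulated genes, 13 genes of MHC class I presentation, 29 of cholesterol and fatty acid synthesis, 25 Wnt and Notch genes and 26 of the nuclear respiratory chain. Their median differences were 0.08, 0.21, -0.17, -0.29 and -0.24. In the same order 6, 1, 3, 9 and 1 had an unadjusted p under 0.05, and DESeq2 called 1, 0, 1, 4 and 0. Of all 13827 tested genes 2300 had an unadjusted p under 0.05 and DESeq2 called 768. None of 6 tested endothelial, 6 immune and 1 acinar markers was called by edgeR or limma-voom, with 3, 3 and 0 at an unadjusted p under 0.05 and 1, 1 and 0 called by DESeq2. All 12 listed markers of each type, tested or not, summed to 27.6 to 52.2, 24.7 to 25.8 and 3.25 to 5.12 CPM in TGFb PD883 libraries and 79.2 to 154, 65.8 to 75.3 and 0.399 to 0.818 CPM in DMSO PD883 libraries, and the part of these cell types in any result was not tested. No endocrine marker passed the filter on low counts.

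**Figure D3:**
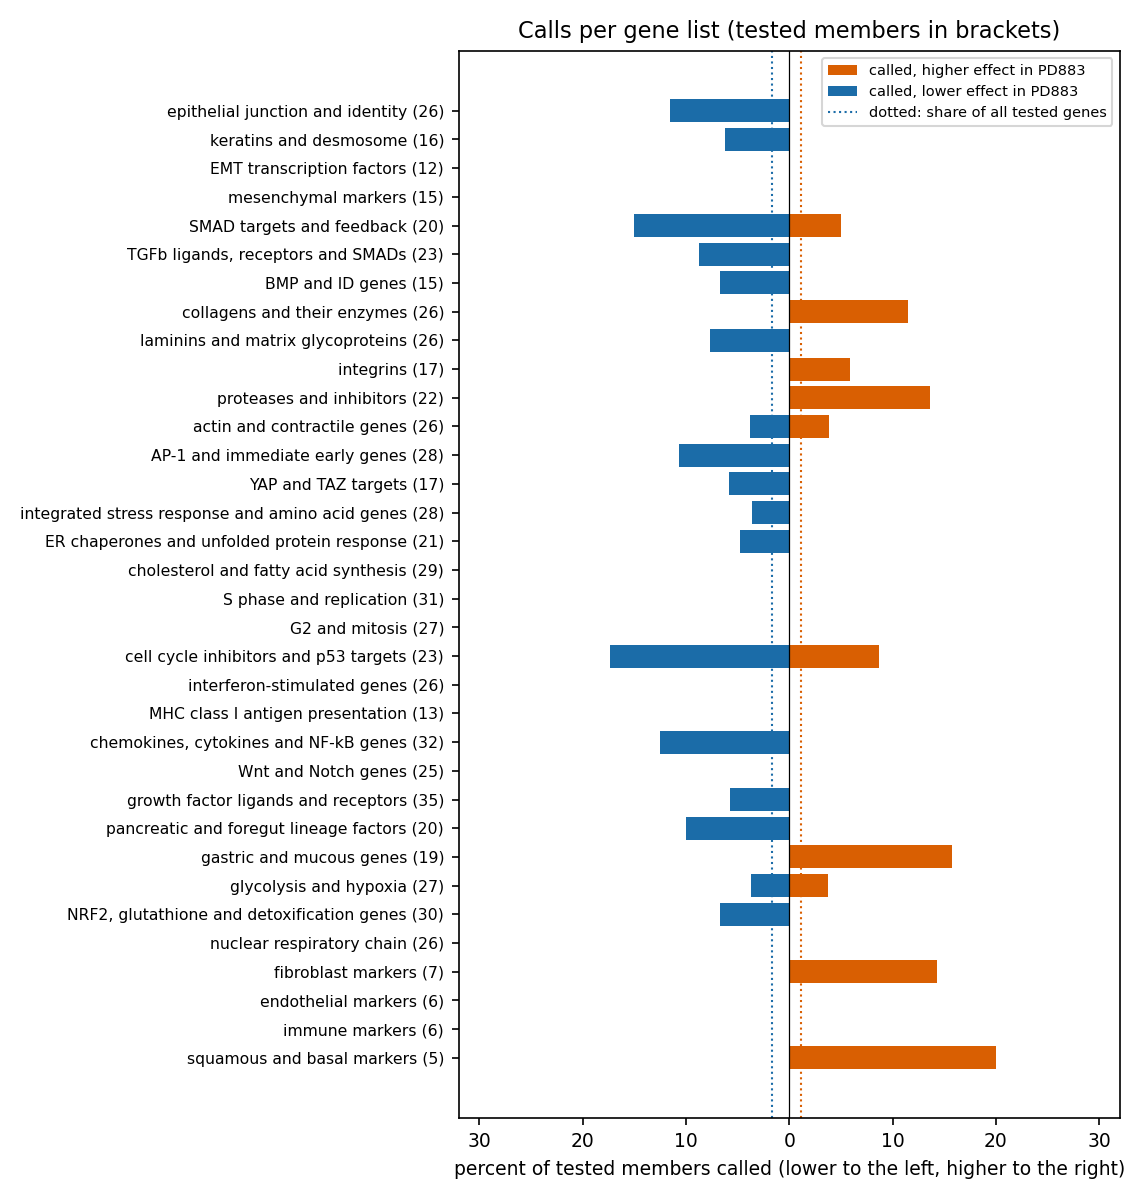
Percent of the tested members of each gene list that were called with a lower (blue, to the left) or higher (orange, to the right) TGFb effect in PD883, with the number of tested members in brackets and dotted lines at the shares over all tested genes (1.63% and 1.11%). Calls in the collagen, protease and gastric lists are on the right alone and those in the epithelial, NF-kB and immediate early lists on the left alone, and the list of 5 squamous and basal markers reaches 20% with 1 call.

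Over all tested genes the level in PD883 differed from the mean of the other lines for 2785 genes under TGFb (20.1%) and 5178 under DMSO (37.4%). For the 225 genes with a lower effect, the median level in PD883 stood -0.23 log2 units from the mean of the other lines under TGFb and 1.12 under DMSO, and 176 of them had their highest DMSO level in PD883. For the 154 with a higher effect the medians were 0.43 under TGFb and -0.98 under DMSO, and 123 had their lowest DMSO level in PD883. Over all tested genes the medians were 0.03 under TGFb and 0.02 under DMSO, and 5099 of 13827 had their highest and 5033 their lowest DMSO level in PD883. These levels come from the libraries that gave the difference, so they describe the called genes and do not test them. Col7a1, Grem1 and Traf1 were among the called genes whose gap was narrower under TGFb, and Ctgf, Hnf4a and Sema3c among those whose gap was wider under TGFb.

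**Figure D4:**
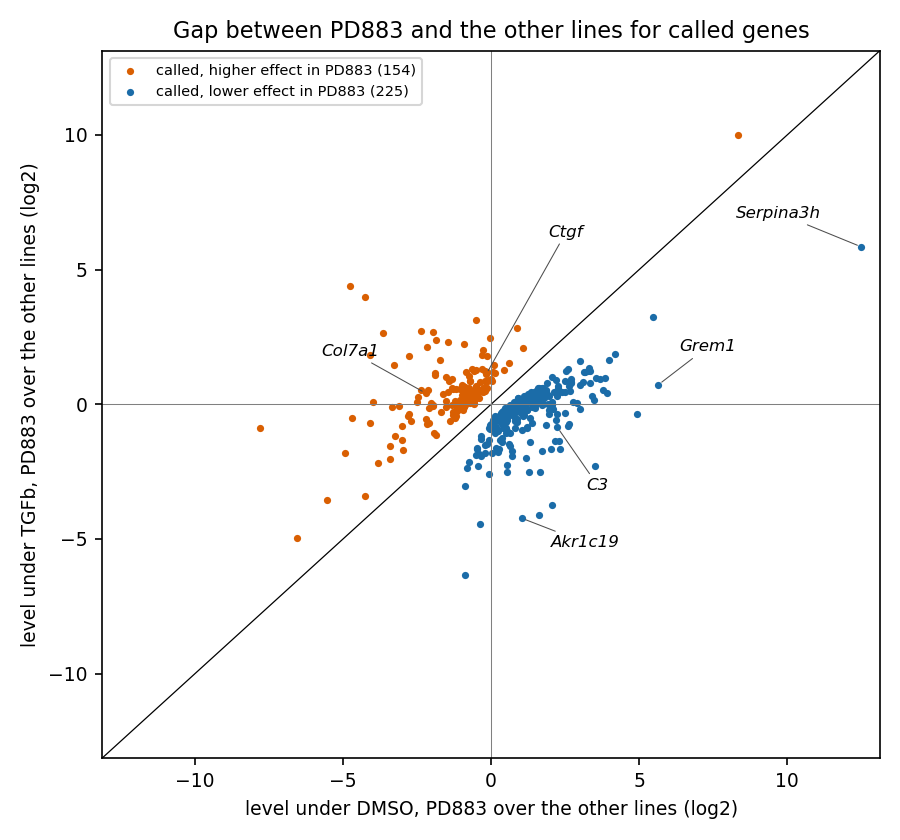
Level in PD883 over the mean of the other lines (log2) under TGFb on the vertical axis and under DMSO on the horizontal axis, 1 point per called gene. The 225 genes with a lower effect (blue) lie below the diagonal with a median of -0.23 under TGFb and 1.12 under DMSO, and the 154 with a higher effect (orange) lie above it with medians of 0.43 and -0.98.

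The largest differences with a mean of at least 2 CPM were mostly of genes at low levels in some group. Lce1g, a late cornified envelope gene of a family of close copies, had 56.6 and 45.4 CPM under TGFb and 0.171 and 0.136 CPM under DMSO in PD883. It had 5.12 and 9.83 CPM under TGFb against 0.384 and 0.24 under DMSO in PD454, and 19 and 17.6 CPM under TGFb against 1.39 and 1.83 under DMSO in PD7591. The difference was 4.27 ± 0.54, adjusted p = 0.00116, called against each line. Ivl, which encodes involucrin of the cornified envelope and was the 1 called of 5 tested squamous and basal markers (20%, against 2.74% of all tested genes), had 8.04 and 9.16 CPM under TGFb and 0 and 0.182 CPM under DMSO in PD883. It had 4.28 and 3.04 CPM under TGFb against 0.274 and 0.571 under DMSO in PD454, and 1.32 and 1.99 CPM under TGFb against 1.44 and 0.916 under DMSO in PD7591. The difference was 4.59 ± 0.91, adjusted p = 0.0154, called against PD7591 (5.84, adjusted p = 0.0074) and not against PD454 (3.34, adjusted p = 0.0982). Those 12 squamous markers summed to 22.2 to 64 CPM in TGFb PD883 libraries, 57.3 to 66.8 CPM in DMSO PD883 libraries and 2.59 to 25.5 CPM in the other lines. The call of Ivl was lost without DMSO PD454 library 14 (4.20, adjusted p = 0.0588), without DMSO PD883 library 7 (3.75, adjusted p = 0.0828) and without TGFb PD883 library 12 (4.46, adjusted p = 0.0579). Without DMSO PD883 library 8 the difference of Ivl was 8.76. Calls also ended without the 4 short-transcript libraries for Ivl (0.0705).

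A pair of genes that handle retinoids, Dhrs3, a retinaldehyde reductase, and Stra6, a retinol transporter, had higher effects that held in each run without 1 library. Dhrs3 had 19.4 and 8.91 CPM under TGFb and 3.14 and 1.68 CPM under DMSO in PD883. It had 4.12 and 3.46 CPM under TGFb against 2.36 and 1.8 under DMSO in PD454, and 0.475 and 0.896 CPM under TGFb against 3.89 and 7.24 under DMSO in PD7591. The difference was 3.62 ± 0.53, adjusted p = 0.00351. Stra6 did not change detectably in PD883 and fell in PD7591 and PD454, with effects of 0.04 ± 0.51 in PD883, -1.57 ± 0.52 in PD454 and -5.04 ± 0.63 in PD7591 and a difference of 3.35 ± 0.67, adjusted p = 0.0158. In both genes the difference was called against PD7591 (5.57, adjusted p = 0.00073; 5.08, adjusted p = 0.00594) and not against PD454 (1.68, adjusted p = 0.134; 1.61, adjusted p = 0.24). Syt8, a synaptotagmin, had a difference of 3.40 ± 0.58, adjusted p = 0.00732. Syt8 had effects of 4.03 in PD883, -0.94 in PD454 and 2.21 in PD7591. The difference of Syt8 was called against PD454 and not against PD7591 (4.98, adjusted p = 0.000678 against PD454 and 1.82, adjusted p = 0.200 against PD7591). The call of Syt8 was lost without DMSO PD883 library 7 (2.97, adjusted p = 0.0622). Adjusted p also exceeded 0.05 without the 4 short-transcript libraries for Syt8 (0.0708).

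The other 3 of the largest higher effects rested on single libraries or on few counts in some groups. Hist1h2af, a histone H2A gene with near-identical copies, had 0.232 and 47.2 CPM under TGFb and 0.855 and 0.636 CPM under DMSO in PD883. It had 1.27 and 1.48 CPM under TGFb against 7.9 and 53.2 under DMSO in PD454, and 0.898 and 0.996 CPM under TGFb against 18.3 and 8.72 under DMSO in PD7591. Its duplicates disagreed widely in the TGFb PD883 and DMSO PD454 groups, and the difference was 9.17 ± 1.93, adjusted p = 0.0215. It was called against PD454 (9.50, adjusted p = 0.0265) and not against PD7591 (8.84, adjusted p = 0.0599). Scarna9, a small Cajal body RNA, had 1.95 and 10.6 CPM under TGFb and 1.88 and 1.000 CPM under DMSO in PD883 (3.79 ± 0.87, adjusted p = 0.032). Ms4a4b, of the MS4A family of close paralogs, was below 1 CPM in PD883, and in PD454 its 0 counts under TGFb against 59 under DMSO put it at least 15.51-fold lower, taking 3 counts per group as the floor (6.29 ± 1.4954, adjusted p = 0.0463). In PD7591 it fell from 9.17 and 14.2 CPM under DMSO to 0 and 0.249 CPM under TGFb (effect -6.45). Its difference was called neither against PD454 (6.86, adjusted p = 0.104) nor against PD7591 (5.71, adjusted p = 0.054). Scarna9 had effects of 2.18 in PD883, -2.01 in PD454 and -1.22 in PD7591. The difference of Scarna9 was called against PD454 and not against PD7591 (4.18, adjusted p = 0.034 against PD454 and 3.39, adjusted p = 0.12 against PD7591). The call of Hist1h2af was lost without DMSO PD883 library 7 (9.38, adjusted p = 0.133), without DMSO PD883 library 8 (8.93, adjusted p = 0.0722) and without TGFb PD883 library 12 (2.48, adjusted p = 0.838). Scarna9 was called in 3 of the 12 runs that left out 1 library, those without DMSO PD454 library 13, TGFb PD454 library 18 or TGFb PD883 library 11; in the rest its difference was 2.04 to 4.28 with an adjusted p up to 0.344, at the end nearest 0 without TGFb PD883 library 12. The call of Scarna9 was lost under 4 of the 8 other settings, the 12-library fit (adjusted p = 0.0899), limma-voom (adjusted p = 0.108), no low-count filter (adjusted p = 0.0944) and without the short-transcript libraries (adjusted p = 0.356). Ms4a4b was called in 2 of the 12 runs that left out 1 library, those without DMSO PD454 library 13 or TGFb PD7591 library 6; in the rest its difference was 5.57 to 7.30 with an adjusted p up to 0.146. The call of Ms4a4b was lost under 2 of the 8 other settings, the 12-library fit (adjusted p = 0.0705) and without the short-transcript libraries (adjusted p = 0.195). The threshold was also missed in a fit of the 12 libraries alone for Hist1h2af (0.0584) and without the 4 short-transcript libraries for Hist1h2af (0.876). Adjusted p was above 0.05 with limma-voom for Hist1h2af (0.279) and without the low-count filter for Hist1h2af (0.076).

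On the lower side, Akr1c19, an aldo-keto reductase of a gene cluster, had 0 and 0.0252 CPM under TGFb and 32.6 and 30.2 CPM under DMSO in PD883. It had 0.211 and 0.369 CPM under TGFb against 14.5 and 17.2 under DMSO in PD454, and 0.423 and 0.697 CPM under TGFb against 14.9 and 14.5 under DMSO in PD7591. In PD883, 1 count under TGFb against 1235 under DMSO gave a 1909-fold lower ratio (95% counting interval 342.1 to 75470), and the difference was -5.27 ± 0.61, adjusted p = 0.000735, called against each line. Plin4, a lipid droplet protein, had 0.279 and 0.429 CPM under TGFb and 19.8 and 5.23 CPM under DMSO in PD883. It had 1.43 and 4.57 CPM under TGFb against 1.04 and 0.721 under DMSO in PD454, and 0.528 and 1.64 CPM under TGFb against 1.33 and 1.4 under DMSO in PD7591. The difference was -5.80 ± 0.93, adjusted p = 0.00559, also called against each line. Serpina3h, of a cluster of near-identical serpin genes, was present in PD883 under either treatment, with 35.9 and 38.2 CPM under TGFb and 43.4 and 23.2 CPM under DMSO. In the other lines it had 0 counts under DMSO, so that it was at least 4.65-fold higher under TGFb in PD454 and at least 20.66-fold higher in PD7591, taking 3 counts per group as the floor (-6.66 ± 1.20, adjusted p = 0.0181). This difference was called against PD7591 (-7.87, adjusted p = 0.0189) and not against PD454 (-5.45, adjusted p = 0.127). The call of Serpina3h was lost without TGFb PD454 library 17 (-5.92, adjusted p = 0.0893) and without TGFb PD883 library 12 (-6.65, adjusted p = 0.0507).

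Cobl, an actin nucleator, Eps8l3, an EPS8-like adaptor, and Kcnq1, a potassium channel of epithelia, fell to near 0 in PD883. Under TGFb these genes were also low in the other lines. Mean CPM in PD454 and PD7591 was 0.34 and 0.72 for Cobl and 0.58 and 0.076 for Eps8l3. For Kcnq1 it was 0.24 and 0.21. Cobl had 1 count under TGFb against 723 under DMSO in PD883, a 1118-fold lower ratio (95% counting interval 200 to 44210), and fell by 6.64 log2 units in PD454 and by 4.58 in PD7591 (-4.08 ± 0.87, adjusted p = 0.0225). Eps8l3 had 2 counts under TGFb against 1743 under DMSO in PD883, a 1347-fold lower ratio (372.4 to 11130), fell by 5.97 log2 units in PD454, and had 3 against 380 counts in PD7591, a 118.5-fold lower ratio (40.25 to 577.3; -3.79 ± 0.85, adjusted p = 0.0288). Kcnq1 had 0.186 and 0.0252 CPM under TGFb and 11.8 and 6.91 CPM under DMSO in PD883 (-3.51 ± 0.87, adjusted p = 0.0469). For Cobl the difference was called against PD7591 (-5.12, adjusted p = 0.00741) and not against PD454 (-3.05, adjusted p = 0.116). For Eps8l3 it was called against PD454 (-4.20, adjusted p = 0.00486) and not against PD7591 (-3.39, adjusted p = 0.1999). Kcnq1 had effects of -6.70 in PD883, -2.12 in PD454 and -4.25 in PD7591. The difference of Kcnq1 was called against PD454 and not against PD7591 (-4.58, adjusted p = 0.0265 against PD454 and -2.45, adjusted p = 0.315 against PD7591). No difference was called without DMSO PD883 library 7 for Cobl (-4.03, adjusted p = 0.0592) and Eps8l3 (-3.77, adjusted p = 0.0785) and without TGFb PD883 library 12 for Cobl (-2.87, adjusted p = 0.293) and Eps8l3 (-3.38, adjusted p = 0.226). The threshold was missed without TGFb PD454 library 17 for Cobl (-3.23, adjusted p = 0.0962) and without TGFb PD454 library 18 for Eps8l3 (-3.60, adjusted p = 0.05). Calls were lost without TGFb PD7591 library 5 for Eps8l3 (-4.01, adjusted p = 0.0636) and without TGFb PD7591 library 6 for Eps8l3 (-3.58, adjusted p = 0.215). Kcnq1 was called in 4 of the 12 runs that left out 1 library, those without DMSO PD454 library 13, DMSO PD883 library 8, TGFb PD7591 library 6 or TGFb PD883 library 11; in the rest its difference was -3.73 to -2.45 with an adjusted p up to 0.398. The call of Kcnq1 was lost under 3 of the 8 other settings, the 12-library fit (adjusted p = 0.113), limma-voom (adjusted p = 0.0796) and without the short-transcript libraries (adjusted p = 0.28). No call was made either in a fit of the 12 libraries alone for Cobl (0.0743), without the 4 short-transcript libraries for Eps8l3 (0.264) and with limma-voom for Cobl (0.0601) and Eps8l3 (0.0641).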

How the data were processed

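The deposited table held raw read counts of 18 libraries per gene symbol, with no scaling by the authors. Per the submitters' processing notes, CASAVA, Trimmomatic 0.32, STAR and featureCounts were used on mm10. Which strand mode and which annotation release were used is not stated, so reads of overlapping or antisense genes could not be told apart. Of 24527 entries, 5059 had 0 counts throughout and 26 had names turned into dates, which are not named here.

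In R 4.3.3, edgeR 4.0.16 (filterByExpr, TMM factors, a mean per group over all 18 libraries, robust quasi-likelihood F test) tested 13827 genes, with Benjamini-Hochberg adjustment over all of them and calls at an adjusted p under 0.05. CPM use TMM-scaled library sizes. SE is the log2 difference over the square root of F. Alternatives were DESeq2's median-ratio scaling within edgeR (RLE), library totals as scale, no filter, DESeq2 1.42.0, limma-voom (limma 3.58.1), the 12 DMSO and TGFb libraries alone, an offset for transcript length, leaving out the 4 libraries rich in short transcripts, and leaving out each of the 12 libraries. Exon lengths were found for 99.2% of the tested genes. Coordinates are on GRCm38.

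The contrast, the 36 gene lists, the panel and the rule below were chosen with earlier results of these data known. Named were the 8 largest differences in each direction with a mean of at least 2 CPM and the same sign, at an unadjusted p under 0.05, against each line; up to 2 called members per list and direction by smallest p; and members of a panel of 31 pathway genes, of which 30 were tested, 1 called higher and 2 lower. Genes outside this rule are marked in the text as chosen with their values in view. Ratios with 1 to 3 counts in a group carry an exact 95% interval, which, like the floor of 3 counts, covers counting error only. Some called genes are not reported here.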

Additional observations from a re-analysis of the deposited data

Results flagged for a closer look

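For 66 genes named in the report the TGFb effect differed between PD883 and the mean of PD454 and PD7591 by the test of that difference, with an adjusted p under 0.05 in the edgeR fit. No group had enough libraries for a search for outlying samples. The values are log2 differences, and no explanation was weighed.

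Where the effect was higher in PD883, the difference was 9.17 for Hist1h2af, 6.29 for Ms4a4b, 4.59 for Ivl, 4.27 for Lce1g, 4.24 for Muc6, 3.79 for Scarna9, 3.62 for Dhrs3, 3.40 for Syt8, 3.35 for Stra6, 3.07 for Fut4, 2.98 for Slc2a3 and 2.72 for Aif1l. Next in size it was 2.61 for Col7a1, 2.15 for Cthrc1, 2.10 for Prss23, 2.09 for Muc1, 2.05 for Timp3, 1.96 for Col1a1, 1.88 for Itga7, 1.66 for Cldn18, 1.28 for Ctgf, 1.12 for Serpine2, 1.08 for Tpm1 and 0.93 for Plk2. It was also 0.91 for Ccnd1, 0.87 for Serpinh1 and 0.84 for Adam8.

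Where the effect was lower in PD883, the difference was -6.66 for Serpina3h, -5.80 for Plin4, -5.27 for Akr1c19, -4.92 for Grem1, -4.16 for Lama3, -4.08 for Cobl, -3.79 for Eps8l3, -3.51 for Kcnq1, -3.09 for C3, -2.31 for Cldn3 and -2.30 for Egr2. Next in size it was -2.09 for Traf1, -2.06 for Ehf, -2.01 for F3, -2.0 for Fas, -1.96 for Ndrg1, -1.94 for Ltbp1, -1.84 for Sema3c, -1.81 for Cdkn1a, -1.79 for Ltbp2, -1.73 for Btg2, -1.61 for Hnf4a and -1.43 for Dusp1. It was also -1.34 for Fgf1, -1.32 for Egr1, -1.31 for Cbs, -1.30 for Ugt1a6a, -1.27 for Marveld2, -1.18 for Inhba, -1.14 for Icam1, -1.06 for Pmaip1, -0.99 for Nfkbia, -0.95 for Foxa2 and -0.89 for Herpud1. Last, it was -0.86 for Krt8, -0.78 for Gclc, -0.73 for Tnfaip3, -0.70 for Rhob and -0.60 for Nfkb1.

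All of these rest on 2 libraries per group. The call held in every run that left out 1 library for 25 of the 66 and under each of the 8 other settings for 31.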

How the results depend on the processing

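Depth and 2 libraries per group limit what could be called: 23 called genes had 3 or fewer counts in some group, and leaving out 1 library leaves a lone sample that is assumed to vary like the other groups. Without the 4 short-transcript libraries each TGFb and DMSO group of PD883 and PD454 kept a lone library. Changes under that setting therefore cannot separate transcript length from the loss of duplicates. No paired analysis was possible because the groups share no library numbers. Of the 379 genes, 378 stayed called with DESeq2, 368 with RLE factors, 365 with the length offset, 350 with library totals, 340 without the filter, 303 with limma-voom, 218 in the 12-library fit and 196 without the 4 short-transcript libraries. Without DMSO PD883 library 7 it was 127, without TGFb PD883 library 12 119, and without each of the others 226 to 320. The median difference over all genes was 0.01 with TMM, -0.01 with RLE factors and 0.04 with library totals. The cause of the changes below was not tested.

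Without the low-count filter 707 genes were called, 286 higher and 421 lower, with 186 called against each line, 988 against PD454 and 492 against PD7591. DESeq2 called 768 genes, 297 higher and 471 lower, with 211 against each line, 1019 against PD454 and 567 against PD7591. The 12-library fit called 240 genes, 91 higher and 149 lower, with 39 against each line and 277 against PD454. Leaving out 1 library at a time gave 130 to 590 calls, 49 to 196 higher and 76 to 394 lower, with 29 to 167 against each line, 175 to 1066 against PD454 and 96 to 343 against PD7591. The TGFb effect itself was called for 3753 to 5438 genes in PD883, 3218 to 4403 in PD454 and 3388 to 5494 in PD7591.

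Signs changed for uncalled genes. The difference of Zeb1 was 0.018 with library totals, 0.02 with the length offset and -0.31 to 0.26 without single libraries. That of Krt19 was -0.43 with limma-voom and -1.92 to 1.13 without single libraries, and that of Pmepa1 0.0018 without the 4 libraries and -0.28 to 0.041 without single libraries. Without single libraries the difference was -0.24 to 0.49 for Smad7, -0.56 to 0.025 for Skil, -0.049 to 0.53 for Tgfbr1, -1.45 to 0.014 for Fn1 and -0.13 to 0.21 for Cdkn2b.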
